A study of Mus musculus with 18 samples.

Results

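The comparison described here sets mouse embryonic stem (ES) cells kept in 2i against the same cells in Fgf2/Activin, the culture that holds pluripotent cells in the naive, pre-implantation state beside one that supports the primed, post-implantation state. Its members are 6 of the 18 RNA sequencing samples of the series, 3 of each culture, chosen by their labels. All were E14 cells, an established ES cell line of strain 12910la, at passage 20. They had been maintained in 2i/Lif and were then embedded in growth factor depleted Matrigel and grown for 48 h in N2B27 medium. The 2i cultures received 0.4 µM PD0325901, an inhibitor of Mek, and 3 µM CHIR99021, an inhibitor of Gsk3. The Fgf2/Activin cultures received Activin A at 20 ng/ml with Fgf2 at 12 ng/ml, and neither inhibitor. The series also holds E14 cells in CHIR99021 alone (CH) and in the solvent DMSO, with 3 samples each, which entered the fit and a second contrast. Because the compared cultures differ in 4 agents at once, the parts of each agent cannot be told apart. The Fgf2/Activin cells had left 2i/Lif only at the start of the 3D culture, so they are not an established primed line. Words such as rose and fell below set the cultures beside each other at 48 h and mean no change over time. The series holds no sample from before the 3D culture. A gain in one culture and a loss in the other can thus not be told apart.

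Naive pluripotency is held by a network of transcription factors that includes Nanog, Esrrb, Klf2, Tfcp2l1 and Prdm14. Inhibition of Gsk3 stabilises β-catenin and relieves repression by Tcf7l1, whereas inhibition of Mek blocks the signal that Fgf4 sends through Erk. When the epiblast implants, the naive factors are shut off, Otx2, Pou3f1 and Fgf5 come on, DNA is methylated anew, and the cells form a polarised epithelium around a lumen. Fgf and Activin or Nodal signals sustain that later state in culture.

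The 6 libraries held between 28523527 and 35089261 counts, with a count for 21953 to 22308 genes in 2i and 22547 to 22596 in Fgf2/Activin. Mitochondrial genes took 1.45 to 1.62% of the counts in 2i and 1.07 to 1.32% in Fgf2/Activin, and ribosomal protein genes 6.11 to 6.43% and 5.70 to 5.84%. Replicate 1 stood apart in both cultures. Across 13220 genes, whose values are no replicates of each other, the deviation of 2i replicate 1 from its group mean correlated with that of Fgf2/Activin replicate 1 (0.52). Its correlations with Fgf2/Activin replicates 2 and 3 were -0.43 and -0.49. Deviations within a culture sum to 0, so the positive value forces the others to be negative on balance, and they are no separate evidence. The comparison was defined with replicate number as a block, which the fit keeps, and counts of genes are given below with and without replicate 1. The labels do not say that the replicates came from separate cultures, so the p-values measure the spread between these samples, which may be technical. In bulk RNA, fewer cells of a type and less RNA per cell cannot be told apart.

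Promoter sequence is shown for 3 of the genes on which the results turn, taken from RefSeq (GRCm38.p6). They were picked because their windows hold a match to letters read by TCF/LEF or ETS factors. Sp5 and Nrp2 rose in 2i and hold CTTTGAT, the letters read by the TCF/LEF partners of β-catenin. Cldn7, a tight junction gene that fell, holds CCGGAAGT, the letters read by ETS factors, on the strand opposite to the gene. Capitals mark the match, and each stretch runs 5′ to 3′ on the plus strand, which is also the strand of all 3 genes.
Sp5, chr2:70474799-70474845: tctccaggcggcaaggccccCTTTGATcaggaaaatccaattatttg
Nrp2, chr1:62703151-62703197: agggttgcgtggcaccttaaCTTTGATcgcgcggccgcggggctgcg
Cldn7, chr11:69965334-69965381: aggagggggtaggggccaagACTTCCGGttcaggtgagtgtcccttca
The first base of the match lies at -104 in Sp5, -146 in Nrp2 and -67 in Cldn7 from the start of transcription used for the window. The Cldn7 stretch lies within the annotated span of the gene, chr11:69964779-69967885, so its window was taken at a later start. In windows of 250 bases before to 50 after the start, on both strands, CTTTGAT stood in 3.73% of all 32851 mouse promoter windows, in 2.59% of those of the genes tested, in 2.92% of those of genes called higher and in 2.28% of those of genes called lower. CCGGAAGT was in 3.89% of all windows, in 7.18% of those of the genes tested, in 2.21% of those called higher and in 1.74% of those called lower. TCAAGGTCA, the letters read by Esrrb, stood in 0.27% of windows of the genes tested. It was in 0.39% of those called higher and 0.23% of those called lower (6 windows each). TTTCCCGC, read by E2F factors and searched for comparison, was in 1.91% of windows tested, 1.04% called higher and 1.62% called lower. Of the other named genes whose windows were searched, Cdk4, which was not called, also holds CTTTGAT, on the strand opposite to the gene. The search left out Cdx1, Egr1, Zeb1, Sema6a and Pmaip1, so whether their promoters hold these letters was not tested. These matches are descriptions of the letters and no evidence of binding. Whether they relate to the direction of a gene's difference was not tested.

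Of 16413 genes tested, 1781 were called higher in 2i (10.9%) and 2733 lower (16.7%), together 27.5%, by edgeR's quasi-likelihood test. A call needed a Benjamini-Hochberg adjusted p below 0.01 together with a log2 fold change beyond 1 in either direction. The median log2 fold change over all genes tested was 0.002, that of the genes called higher 1.92 and that of the genes called lower -2.33. Changes past 5 on the log2 scale were found for 123 genes called higher and 246 called lower. The genes called higher took 7.23 to 8.13% of the counts of the 2i libraries and 2.11 to 2.36% of those of the Fgf2/Activin libraries, and the genes called lower took 1.61 to 1.69% and 6.00 to 6.46%. Without the replicate block, 1498 genes were called higher and 2359 lower, and with only replicates 2 and 3 of each culture 1766 and 2744. In 31.1% of the genes tested all 2i libraries lay above all Fgf2/Activin libraries, and in 32% they lay below.

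**Figure D1:**
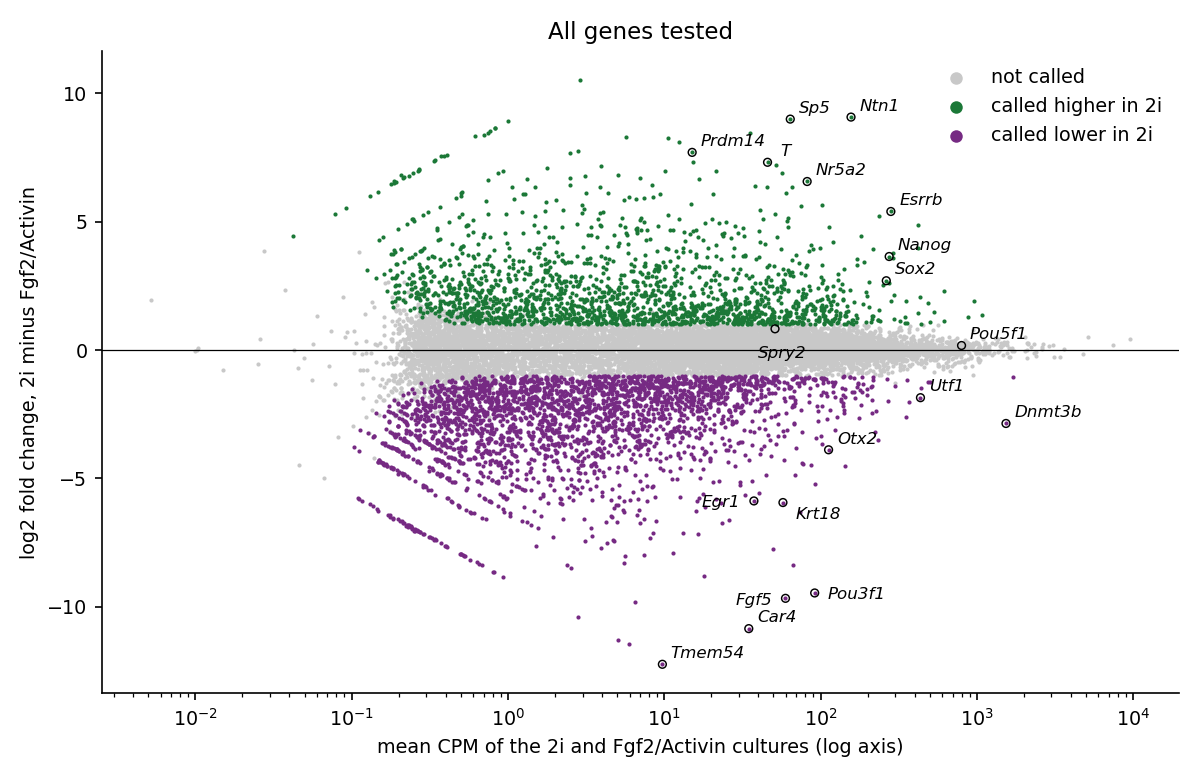
Log2 fold change of each of the 16413 genes tested, 2i minus Fgf2/Activin, against the mean CPM of both cultures on a log axis. Green points are the 1781 genes called higher in 2i, purple points the 2733 called lower and grey points those not called. Sp5 and Ntn1 lie at the top and Tmem54, Car4, Fgf5 and Pou3f1 at the bottom, with Pou5f1 near 0. Points along slanted lines are genes at or near 0 in one culture, for which the fitted change is no bound.

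The naive factors were higher in 2i without exception: all 13 listed were called, where 10.9% of all genes were, with log2 fold changes of 1.93 to 7.70 and a median of 4.78, against a median of 0.002 over all genes tested. Their summed level was 2849 to 3055 CPM in 2i and 131 to 207 CPM in Fgf2/Activin. CPM is the field's library-scaled count, here computed on libraries scaled by TMM. Prdm14, at chr1:13113457-13127163, which keeps DNA methylation low in naive cells, had 33.0, 28.1 and 29.0 CPM in 2i and 0.0602, 0.164 and 0.209 CPM in Fgf2/Activin (log2 fold change 7.70, SE 0.28, adjusted p = 3.34e-09). It was thus close to silent in every Fgf2/Activin library. Nr5a2, an orphan nuclear receptor that can drive Pou5f1, stood at 145, 172 and 171 CPM against 2.02, 1.74 and 1.29 CPM (6.57, SE 0.28). Tbx3, a T-box factor, stood at 125, 131 and 134 CPM against 1.20, 1.94 and 1.67 CPM (6.35, SE 0.26).

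Esrrb, at chr12:86361117-86521628, the orphan nuclear receptor that the study followed as an effector of the Gsk3 inhibitor, had 566, 552 and 530 CPM in 2i and 21.4, 11.5 and 9.21 CPM in Fgf2/Activin (log2 fold change 5.40, SE 0.35, adjusted p = 2.27e-07). Nanog, the homeodomain factor of the naive epiblast, had 622, 459 and 436 CPM against 67.2, 32.7 and 32.7 CPM (3.64, SE 0.60, adjusted p = 0.000288). In both genes replicate 1 was the highest Fgf2/Activin library, and the cultures did not overlap. Exons of Nanog share sequence of at least 75 bases with 66 other genes over 20.6% of its longest transcript, so part of its reads may be split or lost. Klf2, a Krüppel-like factor lost upon Erk activity, had 229, 176 and 195 CPM against 5.65, 3.38 and 2.92 CPM (5.65, SE 0.20). Tfcp2l1, a partner of Esrrb in the naive network, rose by 5.24 on the log2 scale (SE 0.33), from 9.91 to 18.7 CPM in the Fgf2/Activin libraries to 450 to 472 CPM in 2i. Nr0b1, encoding Dax1, rose by 4.22 (SE 0.17). Among members named after their values were seen, Klf5 and Gbx2 had the smallest changes of the list, at 1.93 and 2.01.

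**Figure D2:**
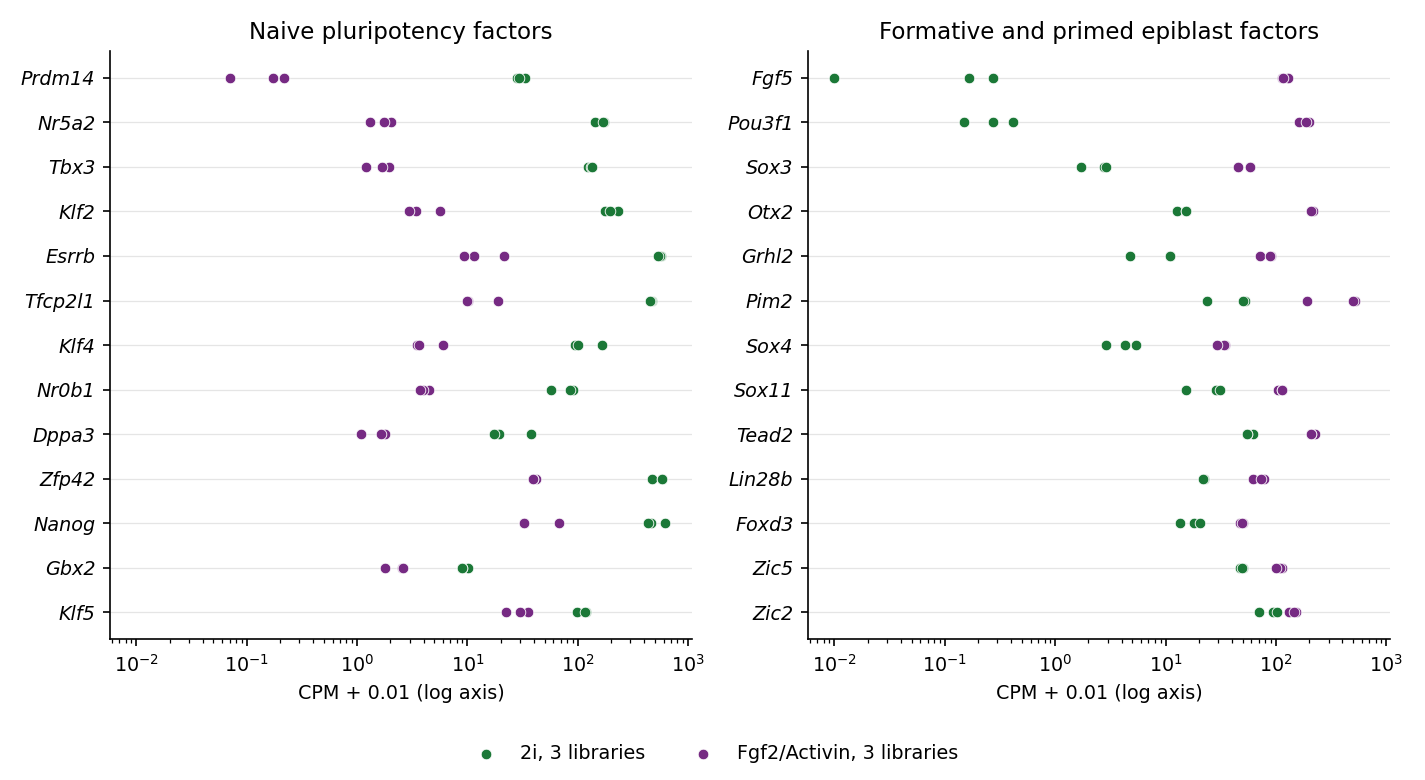
CPM of each naive factor (left) and of 13 of the 14 formative or primed factors (right) in the 3 libraries of 2i (green) and of Fgf2/Activin (purple), on a log axis after adding 0.01. The 13 naive factors show green points to the right of purple ones in every row, and the primed factors shown have the opposite order.

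The core factors shared by both states behaved unlike the naive ones. Of 9 listed, 1 was called higher and 1 lower, where 10.9% and 16.7% of all genes were, with a median log2 fold change of 0.02. Pou5f1, which encodes Oct4, had 745, 920 and 883 CPM in 2i and 706, 766 and 772 CPM in Fgf2/Activin. These libraries overlapped and the change was not called (log2 fold change 0.18, SE 0.06, adjusted p = 0.0284). Its longest transcript shares 21.7% with Gm19553, which overlaps it. Sox2, the partner of Oct4, had 493, 438 and 439 CPM against 69.7, 70.4 and 70.6 CPM (2.70, SE 0.08, adjusted p = 1.05e-09). Utf1, a chromatin factor of pluripotent cells, went the other way, with 140, 220 and 217 CPM against 734, 644 and 660 CPM (-1.86, SE 0.19).

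Of the 14 formative and primed factors, 12 were called lower in 2i, where 16.7% of all genes were, and none higher, with a median log2 fold change of -2.58. Fgf5, at chr5:98254184-98277030, the secreted factor by which the post-implantation epiblast is usually recognised, had 0, 0.265 and 0.156 CPM in 2i and 130, 113 and 115 CPM in Fgf2/Activin (log2 fold change -9.68, SE 0.48, adjusted p = 2.89e-08). Pou3f1, or Oct6, had 0.139, 0.265 and 0.406 CPM against 162, 200 and 187 CPM (-9.47, SE 0.41). Both were nearly off in 2i. Sox3, a relative of Sox2 on the X chromosome, had 1.71, 2.74 and 2.87 CPM against 45.4, 58.8 and 58.5 CPM (-4.50, SE 0.21). Otx2, which redirects Oct4 to the enhancers of the later state and is named here after its values were seen, had 12.8, 15.2 and 15.4 CPM against 208, 217 and 207 CPM (-3.89, SE 0.34). Zic2 had 70.4, 94.9 and 103 CPM against 131, 153 and 145 CPM, which did not pass the fold limit (-0.70, SE 0.16).

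The enzymes that lay down and remove DNA methylation divided. Dnmt3b, a de novo methyltransferase, had 292, 425 and 411 CPM in 2i and 2362, 2931 and 2799 CPM in Fgf2/Activin (log2 fold change -2.86, SE 0.09, adjusted p = 1.73e-09). Dnmt3a, the other de novo enzyme, had 99.7, 102 and 95.1 CPM against 551, 633 and 640 CPM (-2.61, SE 0.11). Of the Tet dioxygenases, which oxidise methylcytosine, Tet3 had 5.57, 3.54 and 4.00 CPM against 37.5, 36.1 and 38.5 CPM (-3.10, SE 0.25). Tet2, named after its values were seen, had 28.1, 34.1 and 36.0 CPM against 5.41, 7.62 and 7.51 CPM (2.27, SE 0.22). The maintenance enzyme Dnmt1 (0.19) and its cofactor Uhrf1 (0.37, SE 0.12, adjusted p = 0.0169) were not called. The transcript of Uhrf1 shares 44.3% with Gm5648. Of all 8 genes, 1 was called higher and 3 lower, where 10.9% and 16.7% of all genes tested were, with a median of 0.04. With only replicates 2 and 3 of each culture 2 were called higher. Dnmt3l, the catalytically inactive partner of the de novo enzymes, had 28.8, 98.9 and 94.4 CPM in 2i against 38.5, 41.2 and 38.9 CPM and was not called (0.82, SE 0.42).

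Wnt/β-catenin targets were among the genes that rose most. Of 15 listed, 8 were called higher in 2i and 2 lower, where 10.9% and 16.7% of all genes were, with a median log2 fold change of 2.85. Sp5, at chr2:70474923-70477729, a zinc finger factor switched on directly by β-catenin, had 167, 103 and 113 CPM in 2i and 0.180, 0.197 and 0.382 CPM in Fgf2/Activin (9.00, SE 0.21, adjusted p = 3.01e-10). T, or Brachyury, the T-box factor of the primitive streak, had 114, 80.4 and 79.0 CPM against 0.211, 0.789 and 0.730 CPM (7.32, SE 0.24). Cdx1, a caudal homeobox gene, had 11.9, 10.6 and 11.3 CPM in 2i and no more than 2 counts in any Fgf2/Activin library. Its pooled counts stood in a ratio of 347, with a 95% counting interval of 118 to 1686 that covers counting error only. Cdx2 had 7.07, 10.5 and 12.7 CPM against 0, 0.131 and 0.139 CPM (6.82, SE 0.62). Axin2 and Notum, feedback inhibitors of the pathway named after their values were seen, had 148 to 206 against 9.87 to 11.4 CPM and 71.9 to 84.1 against 1.35 to 2.20 CPM.

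The rise did not extend to every target. Ccnd1 had 239, 274 and 266 CPM in 2i against 218, 237 and 242 CPM (log2 fold change 0.16, SE 0.09) and was not called. Its transcript shares 29.5% with the overlapping gene LTO1. Lef1 (-0.33) and Tcf7 (0.12), the DNA-binding partners of β-catenin, and Bambi (0.24) were not called either. Nkd1, a feedback inhibitor, was called lower, at 2.51, 1.80 and 2.69 CPM against 6.62, 5.06 and 5.39 CPM (-1.28, SE 0.20). Lgr5, the other member called lower, had 0, 0.0295 and 0.0625 CPM against 0.511, 0.493 and 0.382 CPM. The count of members called lower went to 1 when any of 5 of the 6 libraries was left out, 2i replicates 1, 2 and 3 and Fgf2/Activin replicates 1 and 2.

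Targets of Erk, the kinase downstream of Mek, were lower in 2i: 11 of 17 listed genes were called lower, where 16.7% of all genes were, and none higher, with a median log2 fold change of -1.76. Egr1, the immediate early zinc finger factor, had 1.74, 1.15 and 0.875 CPM in 2i and 54.8, 81.8 and 84.5 CPM in Fgf2/Activin (-5.88, SE 0.27, adjusted p = 1.94e-08). Dusp4, a phosphatase that removes the activating phosphates of Erk, had 4.42, 8.35 and 7.97 CPM against 185, 128 and 123 CPM (-4.39, SE 0.24). Ier3 had 1.74, 2.45 and 2.75 CPM against 13.9, 23.8 and 22.4 CPM (-3.14, SE 0.43). Dusp6, the cytoplasmic Erk phosphatase, and Spry4, a feedback inhibitor of receptor tyrosine kinases, were chosen after their values were seen. Dusp6 had 19.8, 26.9 and 26.4 CPM against 148, 114 and 116 CPM, and Spry4 had 2.51, 7.08 and 7.41 CPM against 28.4, 27.1 and 27.5 CPM.

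Not every member of the list fell. Spry2, another Sprouty inhibitor and a gene the study followed, had 59.0, 68.0 and 69.6 CPM in 2i and 36.1, 37.4 and 36.8 CPM in Fgf2/Activin. Its libraries did not overlap, but the change stayed under the fold limit (log2 fold change 0.83, SE 0.09, adjusted p = 9.52e-06). Etv5, an ETS factor, had 642, 606 and 591 CPM against 740, 619 and 619 CPM, and was not called (-0.11, SE 0.09). Its transcript shares 42.8% with Gm4798.

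Fgf ligands and receptors divided. Of 12 genes tested of the 13 listed, 2 were called higher and 6 lower, where 10.9% and 16.7% of all genes were. The median log2 fold change was -1.10. Fgf15, a ligand of the endocrine subfamily, had 0, 0.147 and 0.0937 CPM in 2i and 37.3, 36.3 and 33.5 CPM in Fgf2/Activin (-8.82, SE 0.61). Fgf8, a ligand of the primitive streak, had 0.139, 0.206 and 0.219 CPM against 2.05, 5.42 and 4.41 CPM (-4.36, SE 0.67). Fgf4, the autocrine ligand of the naive epiblast, had 168, 153 and 156 CPM against 154, 178 and 163 CPM (-0.05, SE 0.13), and its libraries overlapped. The receptor genes Fgfr1 (-0.37) and Fgfr2 (0.28, SE 0.35) were not called, whereas Fgfr3 (-2.23) and Fgfr4 (-1.43) were called lower. Without the replicate block, with only replicates 2 and 3 of each culture, or without any 1 of 5 of the 6 libraries (all but 2i replicate 3), 1 member was called higher. Fgf15 shares 27.9% of its transcript with Gm26793.

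Targets of Nodal and Activin moved in part. Of 9 members tested of 10 listed, 3 were called lower in 2i and 1 higher, where 16.7% and 10.9% of all genes were. The median log2 fold change was -0.97. Skil, a repressor of Smad proteins, had 114, 104 and 104 CPM in 2i and 432, 429 and 433 CPM in Fgf2/Activin (-2.00, SE 0.14). Lefty1, the secreted Nodal inhibitor, named after its values were seen, had 76.8, 40.0 and 39.1 CPM against 173, 144 and 148 CPM (-1.62, SE 0.21). Tdgf1, or Cripto, the Nodal co-receptor, had 148, 197 and 190 CPM against 446, 430 and 391 CPM, which did not pass the test (-1.27, SE 0.40, adjusted p = 0.0157), and shares 26.5% of its transcript with a pseudogene. Gdf3, a Nodal-related ligand, was higher in 2i, at 126, 140 and 134 CPM against 34.8, 41.8 and 39.4 CPM (1.79, SE 0.06). Cer1 had no count in the 6 libraries. Upper-quartile scaling raised the number called lower to 5.

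In the BMP list 2 of 8 members tested were called higher and 2 lower, where 10.9% and 16.7% of all genes were. The median was -0.24. Id4 had 19.1, 8.88 and 10.7 CPM in 2i and 0.421, 0.493 and 0.660 CPM in Fgf2/Activin (log2 fold change 4.58, SE 0.30), whereas Id2 had 2.02, 0.678 and 0.687 CPM against 4.96, 5.72 and 5.70 CPM (-2.40, SE 0.44). Both encode helix-loop-helix inhibitors of differentiation. Msx1, a homeobox target, had 0.279, 0.413 and 0.312 CPM against 2.98, 6.57 and 5.84 CPM (-3.89, SE 0.37). Id3 had 12.5, 38.9 and 40.2 CPM in 2i against 30.0, 17.3 and 17.1 CPM, and replicate 1 lay on the opposite side from replicates 2 and 3 in both cultures. It was not called (0.38, SE 0.37), but was called with only replicates 2 and 3 of each culture (1.20). Leaving out 2i replicate 2 or 3, or Fgf2/Activin replicate 2 or 3, left 1 member of this list called higher.

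The receptor genes for Lif, a factor listed for neither 3D culture, rose. Of 7 members of the Lif/Stat3 axis 2 were called higher and 1 lower, where 10.9% and 16.7% of all genes were. The median was 0.78. Il6st, the shared subunit gp130, had 234, 224 and 225 CPM in 2i and 33.1, 28.2 and 27.3 CPM in Fgf2/Activin (log2 fold change 2.95, SE 0.07, adjusted p = 3.86e-10). Lifr, the ligand-specific subunit, had 76.3, 78.2 and 77.7 CPM against 13.2, 12.6 and 12.2 CPM (2.61, SE 0.08). Stat3, the transcription factor they activate, had 86.7, 68.9 and 69.5 CPM against 53.5, 40.5 and 38.0 CPM, under the fold limit (0.78, SE 0.14). Socs3, the feedback inhibitor induced by Stat3, was called lower (-1.29, SE 0.31, adjusted p = 0.00352) but its libraries overlapped, at 4.11, 1.00 and 1.59 CPM against 8.06, 4.14 and 3.09 CPM. That call was lost without the replicate block, and without 2i replicate 1 or 2 or Fgf2/Activin replicate 2 or 3.

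**Figure D3:**
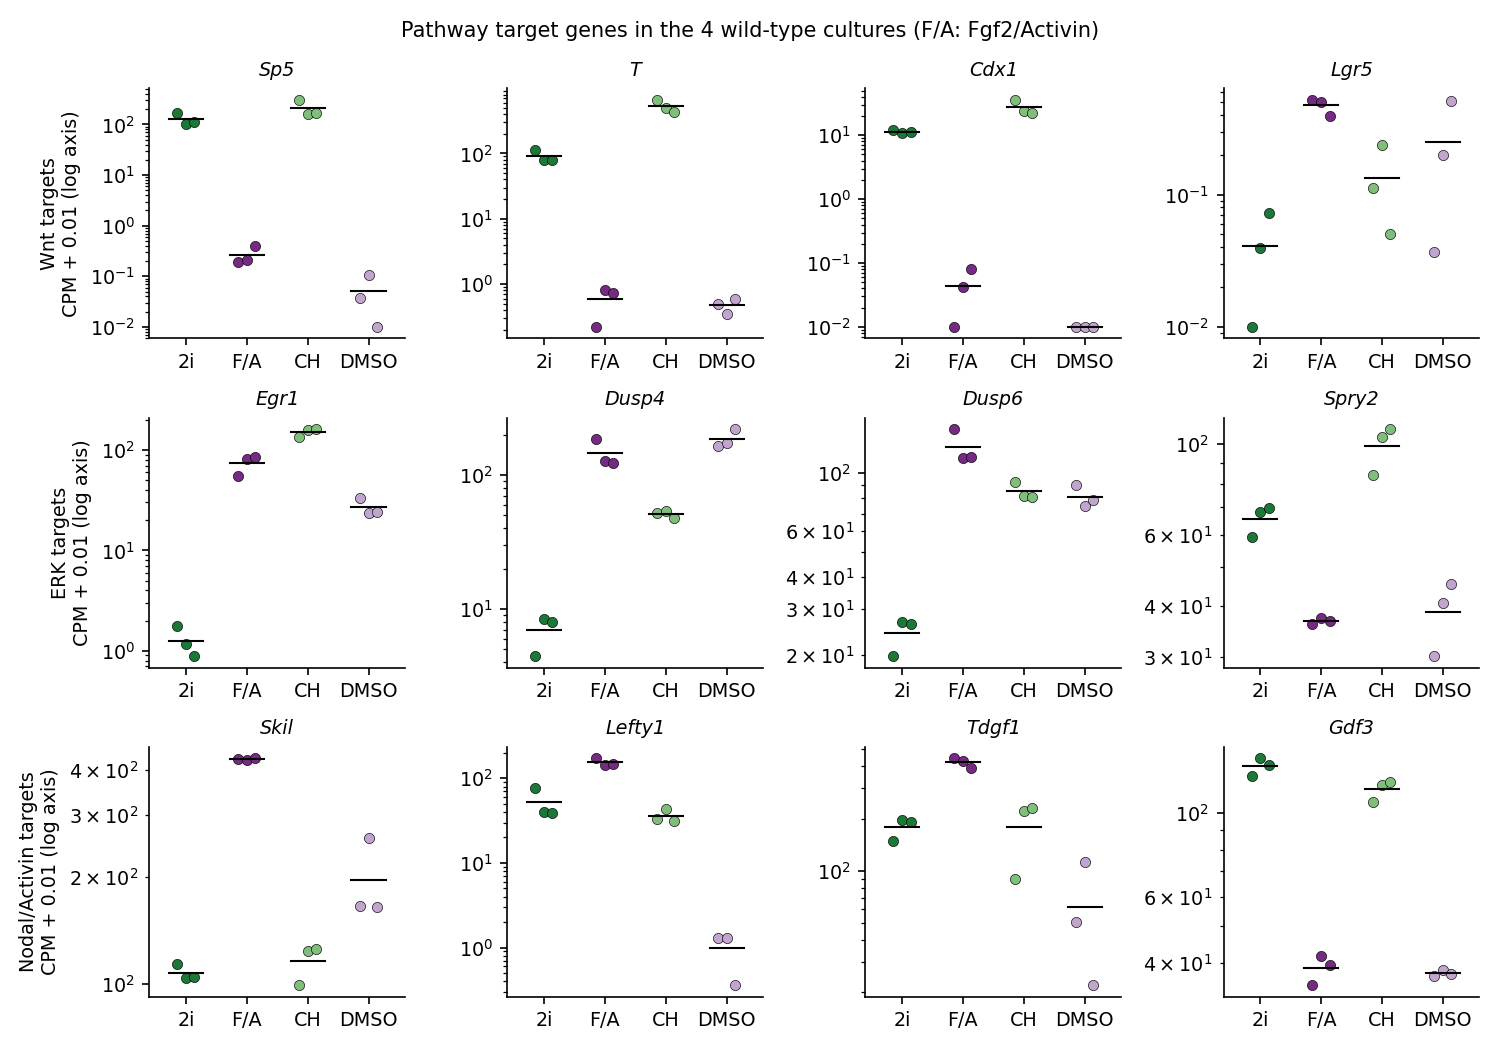
CPM plus 0.01, on log axes that differ between panels, of 4 Wnt, 4 Erk and 4 Nodal/Activin target genes in the 3 libraries of 2i, Fgf2/Activin (F/A), CH and DMSO, with the mean of each culture as a bar. Sp5, T and Cdx1 are high in both cultures with CHIR99021. Egr1 is near 1 CPM in 2i but above 20 CPM in the other 3 cultures, and Lefty1 is near 1 CPM only in DMSO.

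Many genes of epithelial junctions and keratins fell. Of 20 listed, 13 were called lower in 2i, where 16.7% of all genes were, and none higher, with a median log2 fold change of -1.52. Krt18, at chr15:102028180-102032027, a keratin of simple epithelia, had 2.37, 1.56 and 1.34 CPM in 2i and 189, 73.8 and 76.6 CPM in Fgf2/Activin (-5.94, SE 0.18, adjusted p = 1.33e-09). Cldn7, the tight junction claudin whose promoter is shown above, had 17.9, 2.36 and 2.47 CPM against 137, 94.6 and 95.1 CPM (-4.29, SE 0.51). Replicate 1 was the highest library of its culture in both genes. Cgn, or cingulin, which links tight junctions to actin, had 7.77, 6.90 and 7.84 CPM against 105, 76.3 and 80.0 CPM (-3.52, SE 0.12), and shares 34.6% of its transcript with BC021767. Members named after their values were seen include occludin, Ocln (-3.40), Cldn6 (-3.35), Krt19 (-3.16), Krt8 (-2.55) and Epcam (-1.95), all called lower. Cdh1, encoding E-cadherin, had 605, 678 and 674 CPM against 933, 882 and 885 CPM, a difference under the fold limit (-0.47, SE 0.08). Cdh2 (-0.59) and Dsp (-0.22) were not called. Leaving out replicate 1 of either culture, or both, put 1 member on the higher side.

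The apical polarity and lumen list had about as many calls as the genes at large: of 19 members found of 20 listed, 1 was called higher and 5 lower, where 27.5% of all genes were called in either direction, with a median of -0.46. In 13 of the 19 every 2i library lay below every Fgf2/Activin library, as in 32% of all genes. Podxl, the sialomucin of the apical membrane, had 9.47, 12.5 and 12.8 CPM in 2i and 331, 254 and 235 CPM in Fgf2/Activin (log2 fold change -4.54, SE 0.17, adjusted p = 3.73e-09). Arl4c, a small GTPase of tubule formation, had 9.23, 9.35 and 8.37 CPM against 157, 117 and 115 CPM (-3.83, SE 0.14). Pard6b, the Par6 subunit of the apical Par complex, had 24.0, 23.2 and 23.6 CPM against 64.7, 50.6 and 50.7 CPM (-1.22, SE 0.11). Cdc42, the GTPase that binds Par6, had 355, 329 and 328 CPM against 404, 381 and 373 CPM and was not called (-0.19, SE 0.04). Pard3 (-0.36), Prkci (0.54) and Prkcz (0.09) were not called. Ntn1, at chr11:68209364-68400823, encoding the secreted guidance cue netrin 1, was the only member called higher, at 209, 369 and 360 CPM in 2i against 0.361, 0.756 and 0.591 CPM (9.08, SE 0.39, adjusted p = 1.02e-08).

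Basement membrane genes moved in both directions, with 3 of 17 called higher (10.9% of all genes), 5 lower (16.7% of all genes) and a median of -0.11. Lama1, the laminin α1 chain, had 140, 79.4 and 83.9 CPM in 2i and 5.53, 4.07 and 4.35 CPM in Fgf2/Activin (log2 fold change 4.42, SE 0.20). Nid1, or nidogen 1, which bridges laminin and collagen IV, had 169, 163 and 163 CPM against 13.1, 8.08 and 8.45 CPM (4.09, SE 0.16). Col4a1 (-3.07) and Col4a2 (-2.26), the collagen IV chains, were called lower. Itga3, a laminin-binding integrin subunit, had 2.23, 2.24 and 2.44 CPM against 63.9, 41.6 and 40.6 CPM (-4.36, SE 0.15), whereas the common partner Itgb1 (-0.56) was not called. Nid2 had 614, 618 and 631 CPM against 543, 379 and 367 CPM and did not pass the test (0.55, SE 0.16).

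In the list of regulators of epithelial to mesenchymal transition and mesenchymal genes, 9 members were tested. Of these, 4 were called higher (10.9% of all genes) and 1 lower (16.7% of all genes), with a median of 1.11. Zeb1, a repressor of epithelial genes, had 5.75, 12.2 and 11.4 CPM in 2i and 0.211, 0.854 and 0.591 CPM in Fgf2/Activin (log2 fold change 4.17, SE 0.23). Vim, encoding vimentin, had 240, 269 and 264 CPM against 42.0, 55.4 and 55.2 CPM (2.35, SE 0.15). Fn1, encoding fibronectin, rose by 1.90 (SE 0.09), and Tgfb2 by 3.68 (SE 0.44). Snai1, which encodes Snail, had 6.41, 8.29 and 8.62 CPM against 6.92, 4.70 and 4.76 CPM and was not called (0.50, SE 0.21). Twist1 was called lower (-1.85), a call lost without the replicate block.

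Guidance genes divided. Of 19 tested, 6 were called higher and 7 lower, where 10.9% and 16.7% of all genes were, with a median of -0.81. Nrp2, the semaphorin receptor neuropilin 2 whose promoter is shown above, had 106, 126 and 122 CPM in 2i and 1.59, 1.71 and 1.77 CPM in Fgf2/Activin (log2 fold change 6.13, SE 0.16, adjusted p = 6.1e-10). Epha4, an ephrin receptor, had 96.4, 75.6 and 76.2 CPM against 1.89, 2.79 and 2.47 CPM (5.12, SE 0.24). Sema6a, a transmembrane semaphorin, went the other way, at 0.418, 1.12 and 0.781 CPM against 36.8, 43.7 and 45.5 CPM (-5.79, SE 0.30). Of the other semaphorins tested, Sema3e (-2.97), Sema3f (-3.98) and Sema4c (-3.01) were called lower. Plxna1, a plexin co-receptor, had 144, 132 and 135 CPM against 310, 215 and 241 CPM, under the fold limit (-0.88, SE 0.07).

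Notch pathway genes were mostly lower in 2i, with 8 of 13 called lower (16.7% of all genes), 1 higher and a median of -1.41. Hes6 had 22.5, 12.5 and 11.5 CPM in 2i and 227, 173 and 169 CPM in Fgf2/Activin (log2 fold change -3.66, SE 0.11). Dll3, a Delta ligand, had 1.99, 1.33 and 1.41 CPM against 15.1, 18.0 and 17.2 CPM (-3.42, SE 0.19). Dll4 had at most 2 counts in any 2i library, and its pooled counts were lower there by a ratio of 16.0, with a 95% counting interval of 5.16 to 80.5. Jag1, the exception, had 54.0, 61.9 and 61.8 CPM against 15.8, 21.1 and 20.1 CPM (1.65). The receptor Notch1 had 41.2, 49.0 and 49.7 CPM against 67.3, 42.3 and 42.9 CPM and was not called (-0.07, SE 0.21), its sign resting on replicate 1.

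**Figure D4:**
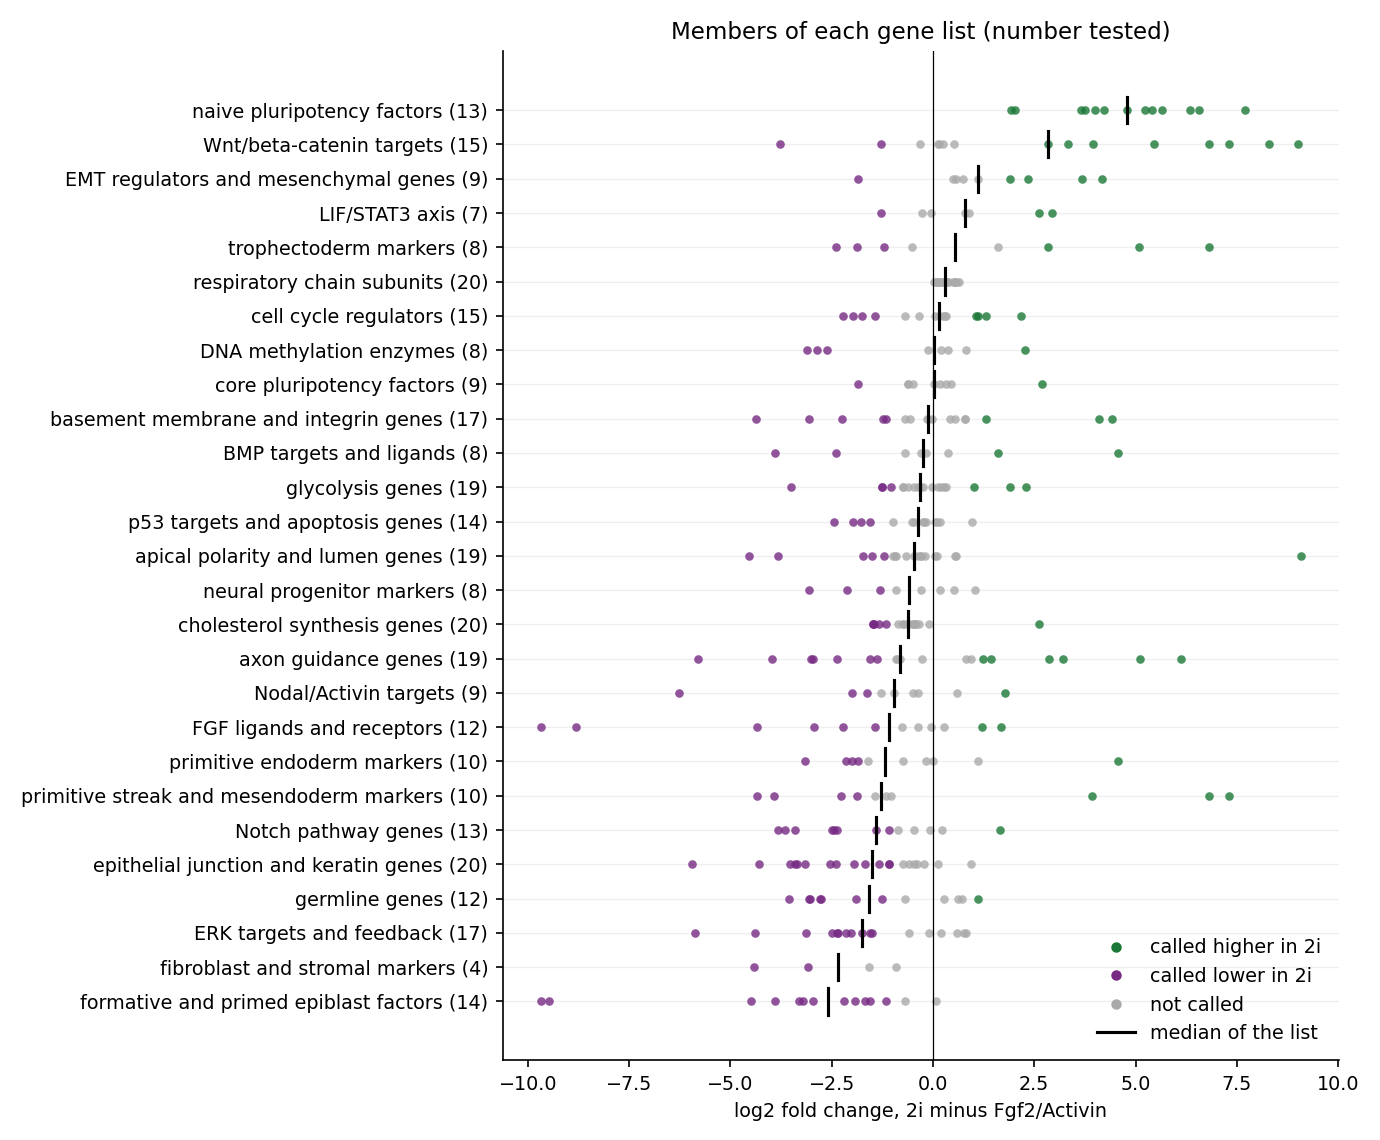
Log2 fold change, 2i minus Fgf2/Activin, of each tested member of 27 gene lists, ordered by the median (black bar), with the number tested in brackets. Naive factors (median 4.78) and Wnt targets (2.85) stand at the top. Erk targets (-1.76) and formative and primed factors (-2.58) stand near the bottom, and respiratory chain genes cluster around 0.30.

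Among metabolic genes, glycolysis stood near the background: of 19 genes 3 were called higher and 4 lower, where 10.9% and 16.7% of all genes were, with a median of -0.33. Slc16a3, the lactate exporter Mct4, had 39.1, 36.5 and 37.7 CPM in 2i and 422, 432 and 439 CPM in Fgf2/Activin (log2 fold change -3.51, SE 0.16, adjusted p = 1.34e-08). Slc2a3, the glucose transporter Glut3, had 1224, 920 and 904 CPM against 283, 189 and 162 CPM (2.30, SE 0.29), while the transporter gene Slc2a1, Glut1, was called lower (-1.26). Pfkp, the platelet isoform of phosphofructokinase, had 609, 511 and 537 CPM against 194, 128 and 129 CPM (1.90, SE 0.21), and the liver isoform Pfkl was called lower (-1.25). Pkm, the pyruvate kinase of proliferating cells, was not called (-0.25, SE 0.06), and shares 65.5% of its transcript with other genes. In cholesterol synthesis 5 of 20 genes were called lower and 1 higher, a share near that of all genes (27.5% in either direction), with a median of -0.61. Most of its changes were smaller than the fold limit: 18 of 20 were lower at an adjusted p below 0.01 with no minimum fold, where 27.5% of all genes were, and in 17 of 20 every 2i library lay below every Fgf2/Activin library, as in 32% of all genes. Fdps (-1.49, SE 0.09), which overlaps Gm43738 over 26.7% of its exons, and Pmvk (-1.47, SE 0.12) fell, whereas Hmgcs1 stayed under the fold limit (-0.61, SE 0.05). Ebp, the sterol isomerase, rose from 9.53, 11.3 and 11.5 CPM to 65.6, 67.8 and 64.0 CPM in 2i (2.61, SE 0.08). None of 20 respiratory chain subunits was called in edgeR's test at the fold limit. With no minimum fold 15 of 20 were higher, where 25.9% of all genes were, and 15 of 20 had every 2i library above every Fgf2/Activin library, as in 31.1% of all genes. Their median log2 fold change was 0.30, and Atp5b, for example, differed by 0.27 (SE 0.04, adjusted p = 0.000132).

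Of 15 cell cycle regulators, 4 were called higher and 4 lower, where 10.9% and 16.7% of all genes were, with a median of 0.16. Myc had 5.68, 15.3 and 14.4 CPM in 2i and 59.4, 45.6 and 45.5 CPM in Fgf2/Activin (log2 fold change -2.22, SE 0.32), and Ccnd2, a D-type cyclin, had 3.69, 6.08 and 5.59 CPM against 21.7, 19.1 and 19.5 CPM (-1.97, SE 0.16). Cdkn2a, the locus of p16 and p19Arf, had 48.1, 35.5 and 36.4 CPM against 7.94, 8.84 and 9.56 CPM (2.18, SE 0.15). Cdk4 was not called (0.25, SE 0.05), and shares 31.2% of its transcript with other genes, among them the overlapping Tspan31. With only replicates 2 and 3 of each culture 2 members were called higher. In the list of p53 targets and apoptosis genes 4 of 14 were called lower and none higher, where 16.7% and 10.9% of all genes were, with a median of -0.36. Bcl2l11, the pro-apoptotic Bim, had 18.9, 18.2 and 18.9 CPM against 106, 97.7 and 99.3 CPM (-2.44, SE 0.14). Bcl2, which opposes it, had 0.383, 0.619 and 0.625 CPM against 2.14, 2.27 and 2.12 CPM (-1.99, SE 0.23). Pmaip1, or Noxa, fell by 1.78 on the log2 scale (SE 0.19). Sesn2 was not called (0.17, SE 0.05). Without 2i replicate 3 or Fgf2/Activin replicate 1, 1 member was called higher.

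Among germline genes 7 of 12 tested were called lower in 2i (16.7% of all genes) and 1 higher, with a median of -1.58. Mael, which acts in piRNA silencing, had 3.94, 4.54 and 4.09 CPM in 2i and 34.7, 35.6 and 35.3 CPM in Fgf2/Activin (log2 fold change -3.07, SE 0.15). Tdrd1 (-3.56, SE 0.29) and Mov10l1 (-3.04, SE 0.20), of the same pathway, also fell. Dazl, an RNA-binding protein of germ cells, had 18.0, 14.1 and 14.7 CPM against 7.13, 11.5 and 9.98 CPM, under the fold limit (0.71, SE 0.18). Sohlh2 (1.11), the member called higher and named after its values were seen, lost its call without 2i or Fgf2/Activin replicate 1. None of 10 genes of the 2-cell stage found in the table reached the level needed for a test, and their summed level was 0.244 to 0.737 CPM in 2i and 0.331 to 1.25 CPM in Fgf2/Activin.

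Markers of other cell types were counted in both cultures and differed in part. Primitive streak and mesendoderm markers summed to 101 to 130 CPM in 2i and 18.3 to 35.6 CPM in Fgf2/Activin. Most of the 2i sum was T, with a mean of 91.0 CPM. Of 10 tested, 3 were called higher and 4 lower, where 10.9% and 16.7% of all genes were. Their median log2 fold change was -1.29. T and Cdx2, which the Wnt list also holds, and Evx1 (3.92) were the members called higher, and Eomes (-1.88), Wnt3 (-2.28), Fgf8 and Lhx1 those called lower. Lhx1 was near the floor, with a mean of 0.00983 CPM in 2i and 0.214 CPM in Fgf2/Activin. Without the replicate block, or without replicate 3 of either culture, 2 of this list were called lower. The calls lost without the block were those of Wnt3 and Lhx1. Tbx6 was not called (-1.03, SE 0.37). Primitive endoderm markers summed to 4.72 to 5.40 CPM against 9.14 to 9.46 CPM, and Ttr had no count. Of 10 tested, 1 was called higher and 4 lower, where 10.9% and 16.7% of all genes were. Hnf4a had no more than 3 counts in any Fgf2/Activin library and a pooled ratio of 23.9, with a counting interval of 11.3 to 60.3. Dab2 fell by 3.15 (SE 0.22) and Amn by 2.15 (SE 0.34), while Foxa3 was not called (-0.17, SE 0.32).

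Trophectoderm markers summed to 89.6 to 89.8 CPM in 2i and 39.7 to 45.6 CPM in Fgf2/Activin. Of 8 tested, 3 were called higher and 3 lower, where 10.9% and 16.7% of all genes were. Tfap2a had 24.9, 24.9 and 22.6 CPM against 0.752, 0.657 and 0.695 CPM (log2 fold change 5.09, SE 0.13), and Tead4 rose by 2.83 (SE 0.30). Cdx2 was the other member called higher, and Eomes, Krt7 (-2.41) and Ascl2 (-1.20) were the members called lower, the last 2 named after their values were seen. Of the factors that define the lineage, Elf5, Gata3 and Hand1 were too low for a test, whereas Cdx2 and Eomes moved in opposite directions. Plac1 was not called (1.60, SE 0.53). Neural markers summed to 26.8 to 58.6 CPM in 2i and 145 to 150 CPM in Fgf2/Activin. Of 8 tested, 3 were called lower and none higher, where 16.7% and 10.9% of all genes were. Nes, encoding nestin, had 8.19, 8.76 and 8.84 CPM against 81.8, 67.4 and 66.6 CPM (-3.06, SE 0.17). Neurod1 fell by 2.11 (SE 0.22). Sox1 (0.17) and Pax6 (1.04), the defining factors, and Map2 (-0.30, SE 0.19) were not called. Tubb3 was called lower (-1.30, SE 0.32), but not without the replicate block, without 2i replicate 1 or 3, without Fgf2/Activin replicate 1 (-0.75) or with only replicates 2 and 3 of each culture (-0.70). In the last 2 of these fits 1 member of the list was called higher. Fibroblast markers summed to 4.74 to 4.90 CPM against 18.5 to 38.6 CPM. Of 4 tested, 2 were called lower and none higher, where 16.7% and 10.9% of all genes were. Those called lower were Dcn (-4.42, SE 0.48) and Thy1 (-3.08, SE 0.48). Pdgfrb was not called (-0.90, SE 0.31), Col1a1 and Col3a1 were too low for a test and Postn had no count. The part of such cells in the other gene groups was not tested.

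The largest changes over all genes, taken where the mean reached 100 counts and the cultures did not overlap, included genes outside these lists. Pglyrp1, a peptidoglycan recognition protein, had 93.8, 60.7 and 58.6 CPM in 2i and 0.0902, 0.164 and 0.348 CPM in Fgf2/Activin (log2 fold change 8.47, SE 0.22). Jam2, a junctional adhesion molecule, had 104, 103 and 103 CPM against 0.692, 0.887 and 0.487 CPM (7.22, SE 0.18), opposite in direction to the claudins. Mobp (8.11, SE 0.32) and Dmgdh (7.33, SE 0.26), a mitochondrial enzyme of choline breakdown, also rose. Trpm1, an ion channel, had at most 3 counts in any Fgf2/Activin library and a pooled ratio of 329, with a counting interval of 151 to 897.

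At the other end, 3 genes had no count in any 2i library. Tmem54, a membrane protein at chr4:129105548-129111626, had 13.2, 21.2 and 24.0 CPM in Fgf2/Activin and was at least 204-fold lower in 2i against a floor of 3 counts per library. Slc22a3, an organic cation transporter, had 18.6, 8.38 and 8.76 CPM and was at least 125-fold lower. Psmb8, an immunoproteasome subunit induced by interferon, had 11.3, 8.97 and 9.98 CPM and was at least 106-fold lower. These floors cover counting error only. Car4, a carbonic anhydrase, had 113, 48.3 and 46.7 CPM in Fgf2/Activin and at most 2 counts in a 2i library, a pooled ratio of 2246 with a counting interval of 768 to 10893. Kif1a, a kinesin of vesicle transport, had 0.209, 0.442 and 0.500 CPM against 194, 99.8 and 105 CPM (log2 fold change -8.39, SE 0.35). Jakmip2 had 11.2 to 13.8 CPM in Fgf2/Activin and Rbbp8nl 9.17 to 12.5 CPM, and neither had more than 1 count in a 2i library.

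A second contrast asked whether the difference of 2i from Fgf2/Activin was unlike that of CH from DMSO, which share no libraries. Each difference is called a step below, though no cells moved between these cultures. Of the 1781 genes called higher in 2i, 97.0% also had a positive change in CH against DMSO (median log2 fold change 1.37), and of the 2733 called lower 91.7% had a negative one (median -1.57). The sign was shared in 75.6% of the genes not called. The difference between the steps was called for 876 genes (5.34% of those tested), 263 in the positive direction (1.6%) and 613 in the negative (3.73%). Of the 613, 481 were also called lower in 2i against Fgf2/Activin, 21 higher and 111 not called. Without the replicate block the difference was called for 81 and 275 genes. With only replicates 2 and 3 of each culture it was called for 327 and 680.

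In this contrast 7 of 17 Erk targets and 7 of 9 Nodal/Activin targets tested were called in the negative direction, where 3.73% of all genes were, and none in the positive. Egr1 had a mean of 1.26 CPM in 2i and 73.7 CPM in Fgf2/Activin, but 152 CPM in CH and 27.0 CPM in DMSO, so that it fell in one step and rose in the other (difference -8.37, SE 0.34). Lefty1 had 1.28, 1.28 and 0.347 CPM in DMSO, 31.1 to 43.0 CPM in CH, 39.1 to 76.8 CPM in 2i and 144 to 173 CPM in Fgf2/Activin (difference -6.81). The comparison culture for CH thus lay far below Fgf2/Activin in this gene. Fgf8 had 5.83 CPM in CH and 0.184 CPM in DMSO (difference -9.40, SE 0.95). Dusp4 fell in both steps, from 186 CPM in DMSO to 51.1 CPM in CH, and by more in 2i (difference -2.53, SE 0.31).

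Among the 13 naive factors, Klf2 and Tbx3 were called in the positive direction, where 1.6% of all genes were, and the other 11 were not called. Klf2 had 141 CPM in CH and 16.4 CPM in DMSO (difference 2.52, SE 0.25). Tbx3 had 73.1 and 2.73 CPM (1.64, SE 0.36), a call lost without the replicate block and without any one of 9 of the 12 libraries. Esrrb had 321 CPM in CH and 15.3 CPM in DMSO (0.86, SE 0.44, not called), and Ntn1 323 and 3.07 CPM (2.45, SE 0.57, adjusted p = 0.013, not called). Krt18 had 2.14 CPM in CH and 136 CPM in DMSO, and its difference of -0.05 (SE 0.27) spanned 0. T had 534 CPM in CH, above its 2i level, and 0.468 CPM in DMSO (-2.86, SE 0.51), a call lost without the block and without Fgf2/Activin replicate 2 or 3.

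**Figure D5:**
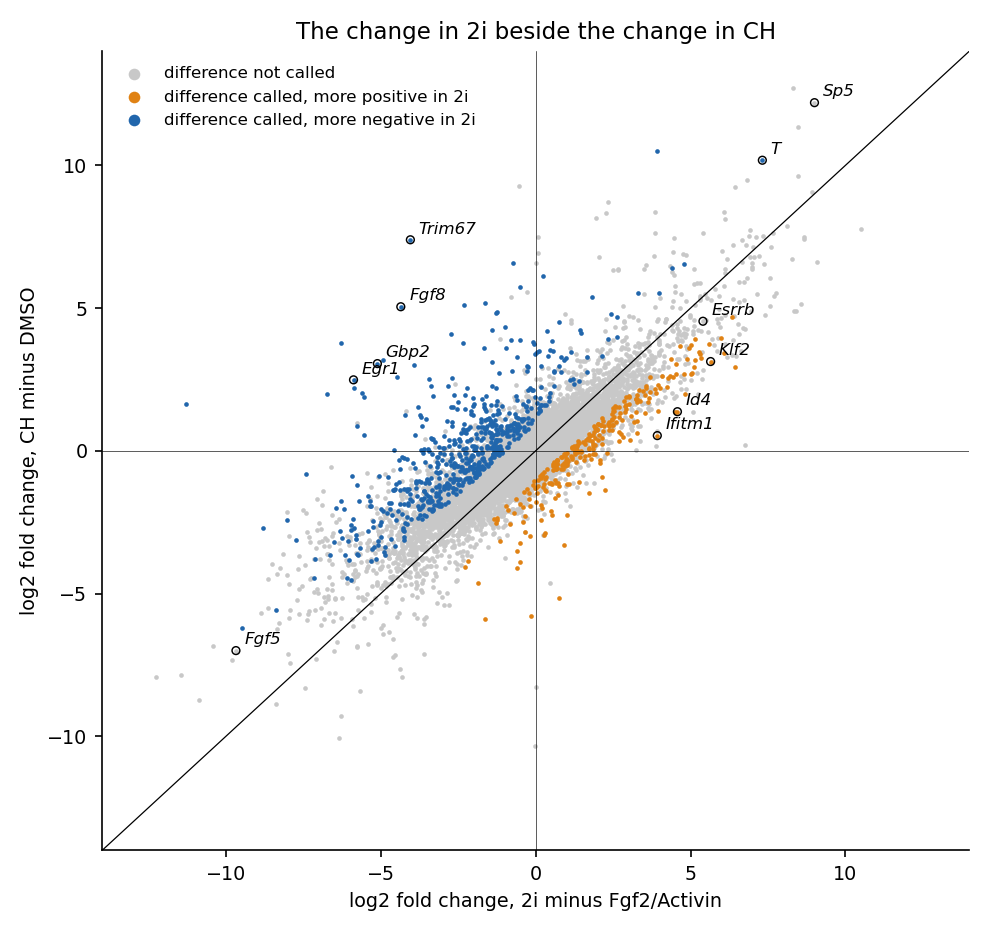
Log2 fold change of each gene tested in CH minus DMSO against that in 2i minus Fgf2/Activin, with the line of equal change. Orange and blue points are the 263 and 613 genes whose difference was called in the positive and in the negative direction. Egr1, Fgf8, Trim67 and Gbp2 lie to the upper left, lower in 2i than in Fgf2/Activin and higher in CH than in DMSO.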

How the data were processed

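Per the submitters' processing notes and the study's methods, the authors mapped poly(A) RNA reads with TopHat2 (mm10) and used HTSeq, ignoring strand, to obtain the deposited raw counts of 49671 Ensembl genes (GRCm38). The Ensembl release is not given in the sources used here. Because counting ignored strand, reads of overlapping and antisense genes cannot be told apart. Symbols, positions and overlaps came from GENCODE, in which 49412 identifiers were found.

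The 12 wild-type libraries were fitted together with edgeR 4.0.16 in R 4.3.3 (limma 3.58.1, glmQLFit and glmQLFTest), with a coefficient per culture and replicate number as a block, TMM scaling and filterByExpr. All 18 columns of the table belonged to a sample, and the 6 samples of cells with a floxed Esrrb allele, with and without 4OHT, were not used. Pairing was checked on the deviations from group means. Same-numbered 2i and Fgf2/Activin libraries correlated at 0.52, 0.38 and 0.44, and replicates 2 and 3 also did so across numbers (0.45 and 0.40). Because the deviations of a culture sum to 0, these values depend on each other. Replicates of a culture differed by more than sampling noise, with 2.68 to 37.5 chi-square units per gene. A test with DESeq2 1.42.0, which the authors used, other scalings, filters and fold tests, the fit without the block, fits of 6 libraries, and each library left out were alternatives. The fit of only replicates 2 and 3 was added after seeing the data. The step that tests genes was tested on simulated data, with changes placed in a small share of genes with many counts. It does not cover genes with few counts, or data in which as many genes differ as here.

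Genes named by rule are the 10 called with the largest change in each direction. From each list come the 3 called members with the largest change and its most abundant member not called. The genes the study names, and the 5 called with the largest difference of contrasts in each direction, are also included. Those with the largest changes had a mean of at least 100 counts. All other genes named were chosen after their values were seen, also where this is not said beside them. Of the list members, 3 are counted but not reported by name here. The members and lists were chosen with earlier results of these data known. Sequence shared with other genes was taken from blastn 2.17.0 (at least 75 bases at 95% identity), and is given where it exceeds 20% of a transcript. Promoter windows were found for 91 of 125 named genes. Totals of 25388139 to 37158661 counts limit the precision of genes with few counts. Figures were drawn with matplotlib 3.10.9.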

Additional observations from a re-analysis of the deposited data

Results flagged for a closer look

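Each value below is the log2 fold change of 2i against Fgf2/Activin minus that of CH against DMSO, for named genes at which this difference was called by edgeR's quasi-likelihood test, and each is given because the 2 steps differed. In all, 263 genes were called in the positive and 613 in the negative direction.

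In the positive direction stood the naive factors Klf2 (2.52) and Tbx3 (1.64), the basement membrane genes Lama1 (1.83) and Nid1 (1.48), and Id4 (3.21). Pla2g4e (3.52), a phospholipase gene, had 9.82, 20.2 and 19.8 CPM in 2i and 0.150, 0.197 and 0.209 CPM in Fgf2/Activin, with means of 4.45 CPM in CH and 0.555 CPM in DMSO. Ifitm1 (3.39), an interferon-induced membrane protein gene, had 139, 88.8 and 88.0 CPM in 2i and 7.16, 6.74 and 6.54 CPM in Fgf2/Activin, and 68.7 and 48.1 CPM in CH and DMSO. It shares 36.2% of its transcript with Gm7676. Fgfr2 (3.24) did not differ by the test between 2i and Fgf2/Activin, at 7.24 to 10.1 and 5.59 to 8.31 CPM, and stood at 5.32 CPM in CH and 38.7 CPM in DMSO. Ror1 (3.20), a Wnt receptor gene, was higher in 2i than in Fgf2/Activin (1.73) and had 16.0 CPM in CH and 41.7 CPM in DMSO.

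In the negative direction stood the signalling targets Egr1 (-8.37), Dusp4 (-2.53), Skil (-1.26), Tdgf1 (-2.88), Msx1 (-4.45) and Socs3 (-2.05). The ligands Fgf8 (-9.40), Fgf15 (-6.11) and Dll3 (-2.88), and the semaphorin Sema6a (-2.85), had negative differences too. So did the regulators Pou3f1 (-3.28), T (-2.86), Myc (-2.55) and Ccnd2 (-2.01), and Podxl (-1.19), Mael (-1.21), Nes (-1.12) and Kif1a (-2.80). Trim67 (-11.44), a ubiquitin ligase gene, had 0.501 to 1.18 CPM in 2i, 8.97 to 16.9 CPM in Fgf2/Activin, 15.9 CPM in CH and 0.0886 CPM in DMSO.

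Psmb8 (-12.94), Oasl2 (-8.73) and Gbp2 (-8.17) are known as genes that interferon induces. Gbp2 had 1.18, 1.42 and 1.25 CPM in 2i, 42.8, 44.9 and 42.8 CPM in Fgf2/Activin, 10.4 CPM in CH and 1.24 CPM in DMSO. Oasl2 had 0.279, 0.0590 and 0.0625 CPM in 2i against 15.0, 13.2 and 13.1 CPM, with 1.26 CPM in CH and 0.313 CPM in DMSO. Psmb8, without counts in 2i, had 0.862 CPM in CH and 0.275 CPM in DMSO, and its fitted value is no bound. No list of interferon genes was tested.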

How the results depend on the processing

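No gene called between 2i and Fgf2/Activin changed sign under any alternative that tested it. Without the replicate block 1498 and 2359 genes were called higher and lower, of which 3846 were shared with the blocked fit. The calls were 1147 higher and 1520 lower with at least 10 counts in every library, 1054 higher and 1852 lower with glmTreat against a log2 fold change of 1, 843 and 1487 with DESeq2 against the same limit, and 4257 and 4508 without a minimum fold. With DESeq2's Wald test they were 1675 and 2677. Leaving out 1 library gave 1631 to 1742 higher and 2500 to 2649 lower. Upper-quartile scaling gave 1594 and 2907, and put the median of all genes at -0.09.

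The difference of contrasts was called for 81 genes in the positive and 275 in the negative direction without the replicate block, and for 33 and 166 with glmTreat. Without a minimum fold it was called for 693 and 840. Leaving out 1 library gave 174 (without 2i replicate 2) to 271 in the positive direction. Of the named genes, 14 called in this contrast lost the call without the replicate block: Fgf15, Id4, Kif1a, Lama1, Myc, Nes, Nid1, Pla2g4e, Pou3f1, Sema6a, Socs3, T, Tbx3 and Tdgf1. Between 2i and Fgf2/Activin, 16 of the 174 list members called lost their call without the replicate block, among them Socs3, Tubb3, Twist1, Wnt3, Lhx1 and Krt7.

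Among the named genes, log2 fold changes of 4 that were not called changed sign when 1 library was left out. They ranged from -0.16 to 0.017 in Etv5, -0.16 to 0.056 in Fgf4, -0.21 to 0.20 in Notch1 and -0.38 to 0.13 in Foxa3. With only replicates 2 and 3 of each culture Notch1 was at 0.22 and Foxa3 at 0.25. The causes were not tested. Depth limits genes under a few counts per library, for which ratios carry wide counting intervals.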

Other observations

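The classes of genes differed in how many were called. Of 14182 protein-coding genes tested, 9.97% were higher in 2i and 18.0% lower, whereas of 452 lincRNA genes 25% were higher and 11.3% lower. Of 387 antisense genes 19.4% were higher and 11.1% lower, though reads of antisense genes and their partners cannot be told apart in these counts. Calls were fewer among abundant genes: 8.29% of genes with a mean of 100 CPM or more were called in either direction, 17.6% of those at 10 to 100 CPM and 45.6% of those at 1 to 10 CPM. Below a mean of 1 CPM the share was 39.7%. Across chromosomes the share called ran from 23.1% on chromosome 16 to 31.8% on chromosome 15.

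Some genes were counted in one culture alone. With at least 10 counts in each library of one culture and 0 in all of the other, 14 genes were found in 2i and 37 in Fgf2/Activin. These genes were named after their values were seen. Hoxc4, a homeobox gene of the trunk, had 166 to 201 counts in the 2i libraries, and Edn1, encoding endothelin 1, had 33 to 66. In the Fgf2/Activin libraries, beside the 3 genes given above, Prom2, encoding prominin 2 of membrane protrusions, had 142 to 233 counts. Cldn1, a claudin, had 33 to 68 counts and Epn3, encoding epsin 3, had 35 to 67. The keratins also fell on both sides, with Krt23 at 17 to 67 counts in 2i, and Krt77 at 12 to 26 and Krt79 at 12 to 15 counts in Fgf2/Activin.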
